A study of Homo sapiens with 4 samples.

Results

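The DNAJ genes encode the HSP40 cochaperones, proteins that carry a J domain and deliver client polypeptides to HSP70 chaperones. The J domain stimulates the ATPase of an HSP70, which then closes on the client, and a nucleotide exchange factor later reopens it. Class A members have the J domain, a glycine and phenylalanine rich stretch and a zinc finger region, class B members lack the zinc finger, and class C members share the J domain alone and often work with 1 client or in 1 organelle. Some cytosolic members, DNAJB1 and DNAJA1 among them, belong to the heat shock response, and several members of the endoplasmic reticulum belong to the unfolded protein response. The family was taken as every protein-coding gene whose symbol is DNAJA, DNAJB or DNAJC followed by a number, with or without a closing letter. This gave 44 of the 58735 genes in the count table, 4 of class A, 12 of class B and 28 of class C.

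The values are RNA-seq read counts of wild-type A549, an established human lung adenocarcinoma line labelled as tumor cells, grown in DMEM with serum, stained for the adhesion molecule ICAM1 and sorted by flow cytometry. There were 2 libraries of the ICAM1-high subset and 2 of the ICAM1-low subset, and the study compared the subsets. Apart from the sort no treatment or genotype differed in the labels, no unsorted cells were among the 4 libraries, and whether replicates came from separate cultures or sorts is not given. P-values therefore rest on the spread among these libraries alone, and that spread may be technical. Levels below are counts per 1000000 counts (CPM) after TMM scaling, with the SD over n = 2 libraries, and fold changes are ICAM1-high over ICAM1-low on the log2 scale. A gene was called, and is said to have risen or fallen, at a Benjamini-Hochberg adjusted p under 0.05 in edgeR's quasi-likelihood test over the 16250 genes that passed the filter on low counts.

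Library totals ran from 16272591 to 17638647 counts, so 3 counts, the limit that a count of 0 allows, came to 0.161 to 0.196 CPM. ICAM1, the sorting marker, stood at 113 ± 3.60 CPM in the ICAM1-high subset against 4.75 ± 0.202 CPM. The ICAM1-high libraries went against the A549 label. CDKN2A, CDKN2B and MTAP, which are known to be deleted in A549, had 1009 and 1214, 174 and 182, and 459 and 463 counts in ICAM1-high, against 0 and 0, 0 and 0, and 1 and 8 in ICAM1-low. Of 8 genes known to be abundant in A549, 7 were called lower and 1 higher, with summed levels of 12170.2 and 12855.8 CPM in ICAM1-high against 22604 and 23313 CPM. Of 6 epithelial markers, 4 were called higher and 2 lower (summed 5050.3 and 5212 CPM against 3686 and 3746 CPM). Of 8 fibroblast markers 5 were tested and 4 called higher (31.8 and 36.2 CPM against 4.80 and 5.80 CPM). COL1A2 and COL3A1 were at 0 counts in ICAM1-high. Of 8 endothelial markers 4 were tested and all 4 called higher (23.7 and 27.0 CPM against 3.78 and 5.05 CPM, with ERG at 0 in ICAM1-low). Among 7 leukocyte markers 2 were tested, 1 called higher and 1 lower (24.6 and 25.9 CPM against 18.1 and 18.7 CPM). PTPRC and CD3E had 0 counts in all 4 libraries. Every DNAJ difference below moves with these values, and the part of cell identity in them was not tested. In bulk libraries, fewer cells that express a gene and less RNA per cell cannot be told apart.

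Of the 44 DNAJ genes, 38 passed the filter, 18 were called higher in ICAM1-high and 10 lower, and 10 were not called. The 28 called members are 73.7% of those tested, where 59.7% of all genes tested were called. The share of all genes called higher was 30.4% and that called lower 29.4%, so calls as such were common in this comparison. The members' median log2 fold change was 0.13, against 0.01 over all genes tested. At least 2-fold changes were fewer: DNAJB5, DNAJC15, DNAJA1 and DNAJC14 were called higher and at least 2-fold up, where 10.8% of all genes were, and DNAJB2 was called lower and at least 2-fold down, where 4.71% of all genes were. The libraries of the subsets did not overlap for 27 of the 28 called members, the exception being DNAJC17. Over all 38 tested members the count was 31. The share over all genes was not counted, so these counts are not read as a result about the members. With scaling by library size only, the median over all genes moved by 0.17 and the members divided into 22 called higher and 6 lower. Higher calls then made up 78.6% of the members' calls against 64.3% with TMM scaling, and 68.3% against 50.8% over all genes. DESeq2 called 14 members higher and 9 lower.

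**Figure D1:**
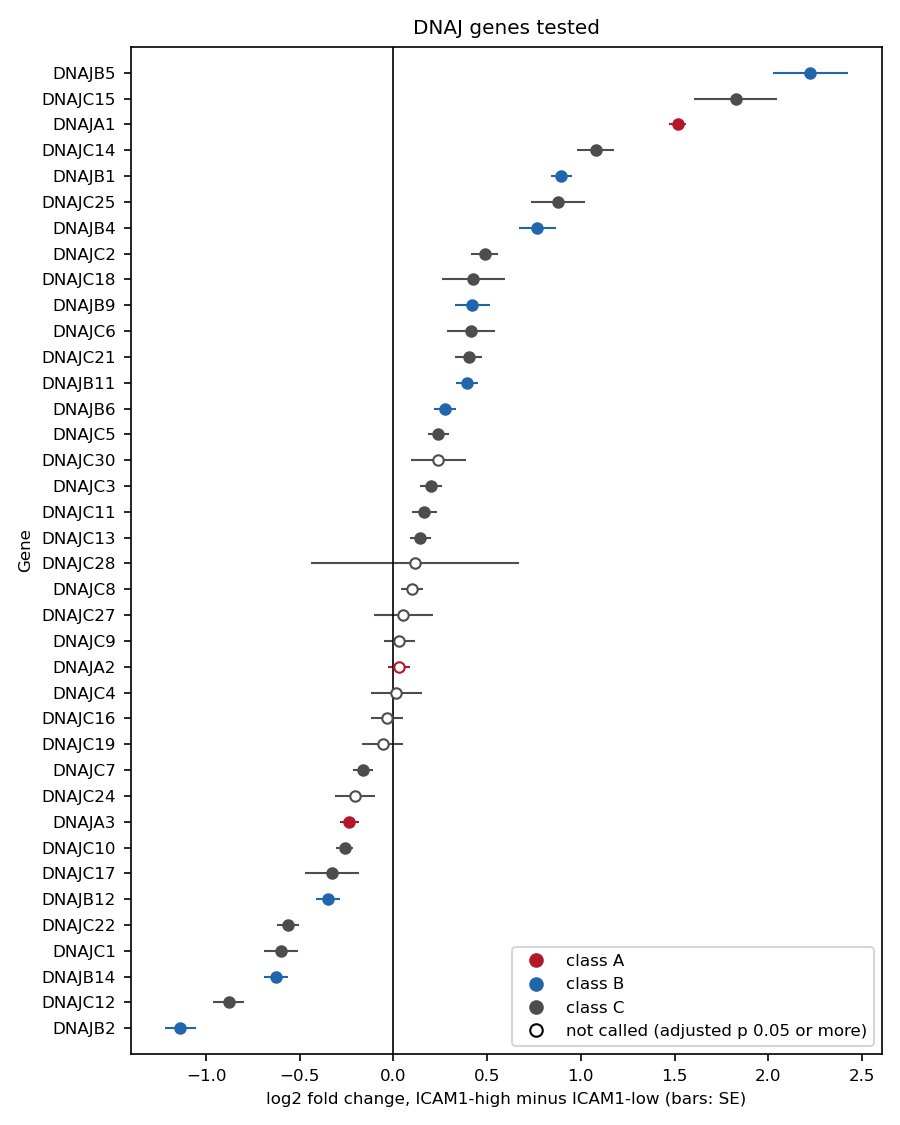
Log2 fold change, ICAM1-high minus ICAM1-low, of the 38 DNAJ genes tested (x axis; bars are the SE of the fit), ordered by size and coloured by class; open points were not called. The points run from -1.14 for DNAJB2 to 2.22 for DNAJB5, and all 9 tested class B genes are filled.

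By class, all 9 tested class B genes were called, 6 higher and 3 lower, with a median log2 fold change of 0.39. Of the 3 tested class A genes 1 rose, 1 fell and 1 was not called. Of the 26 tested class C genes 11 rose, 6 fell and 9 were not called, with a median of 0.11. The shares called were 66.7% for class A, 100% for class B and 65.4% for class C, beside 59.7% of all genes tested. DESeq2 called 7 class C genes higher, as did edgeR when ICAM1-low replicate 2 was left out. Levels can be compared between genes only per length, here as CPM per kb of exons in GENCODE 29. On that scale DNAJA1 had the highest level in the family in both subsets, at 126 ± 0.794 in ICAM1-high and 44.2 ± 1.82 in ICAM1-low. It made up 27.2% and 26.9% of the summed family level in ICAM1-high, against 12.2% and 11.6% for ICAM1-low.

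The summed level of class A was 163 ± 0.239 CPM per kb in ICAM1-high and 83.7 ± 1.32 in ICAM1-low, a ratio of 1.95. Class B summed to 98.0 ± 1.21 against 77.8 ± 0.849, a ratio of 1.26. Class C, the largest class, summed to 206 ± 1.05 against 209 ± 0.265, a ratio of 0.985 that turned to 1.11 with scaling by library size only. Over the whole family the sum was 467 ± 0.0785 against 371 ± 0.737, a ratio of 1.26. Without DNAJA1 it was 341 ± 0.872 against 327 ± 1.09, a ratio of 1.04. With scaling by library size only the ratio was 1.42 for the family and 1.18 without DNAJA1, and 2.20 for class A and 1.42 for class B. With 2 libraries against 2, an exact permutation test cannot give a two-sided p under 0.333, so these sums are given without a test.

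**Figure D2:**
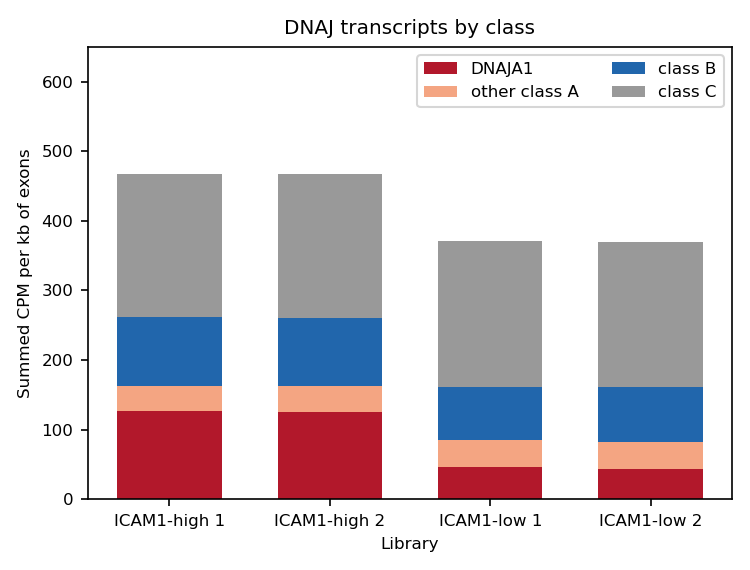
Summed CPM per kb of exons of the DNAJ genes in each of the 4 libraries (bars start at 0), stacked by class with DNAJA1 shown apart from the other class A genes. The DNAJA1 segment is 126 ± 0.794 in the ICAM1-high bars and 44.2 ± 1.82 in the ICAM1-low bars, while the class C segment is 206 ± 1.05 and 209 ± 0.265.

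Among the 9 general folding members of the cytosol and nucleus, 8 were tested, 5 rose and 2 fell, with a median log2 fold change of 0.52. That is 87.5% called, beside 59.7% of all genes tested. The share called higher was 62.5%, beside 30.4%, and the share called lower 25.0%, beside 29.4%. DNAJA1 (ENSG00000086061, chr9:33025211-33039907, plus strand, GRCh38) encodes a farnesylated class A cochaperone of cytosolic HSP70. It measured 347 and 344 CPM with high ICAM1, against 124 and 117 CPM with low ICAM1. Both ICAM1-high libraries lay far above both ICAM1-low libraries, a 2.86-fold difference (log2 1.52, SE 0.05, adjusted p = 3.37e-40). Its 6 pseudogenes in the table held 0 to 6 counts in all per library. DNAJB1 (ENSG00000132002, chr19:14514770-14529770, minus strand), the canonical stress-inducible HSP40, measured 140.0 and 140.0 CPM against 76.0 and 74.5 CPM. The difference was 1.86-fold (log2 0.90, SE 0.06, adjusted p = 2.62e-23), and the libraries of a subset were nearly equal. Per kb of exons DNAJB1 was the most abundant class B gene in both subsets, at 38.1 and 20.5 CPM per kb.

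DNAJB5 (ENSG00000137094, chr9:34989641-34998900, plus strand), a class B relative of DNAJB1, showed the largest fold change of the family. It measured 10.4 and 10.5 CPM against 2.24 and 2.22 CPM, a 4.67-fold difference (log2 2.22, SE 0.20, adjusted p = 1.13e-15). Its level stayed low, at 1.77 CPM per kb in ICAM1-high. DNAJB4 (ENSG00000162616, chr1:77979175-78017964, plus strand), another close relative of DNAJB1, measured 30.1 and 29.6 CPM against 15.9 and 19.2 CPM (log2 0.77, SE 0.10, adjusted p = 4.17e-10). The ICAM1-low libraries differed from each other more than the ICAM1-high libraries did, and the subsets did not overlap. DNAJB6, which holds back the aggregation of polyglutamine proteins, measured 95.2 and 90.1 CPM against 76.7 and 76.5 CPM (log2 0.27, SE 0.06, adjusted p = 4.42e-05).

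DNAJB2 (ENSG00000135924, chr2:219279267-219286900, plus strand), a class B member that binds ubiquitin and steers clients to the proteasome, was the most reduced of the family. It measured 23.3 and 22.8 CPM against 48.0 and 53.5 CPM. Both ICAM1-high libraries were below both ICAM1-low libraries, by 2.20-fold (log2 -1.14, SE 0.08, adjusted p = 7.18e-20). DNAJC7, which carries tetratricopeptide repeats and binds both HSP70 and HSP90, measured 96.5 and 99.6 CPM against 110.1 and 109.1 CPM (log2 -0.16, adjusted p = 0.00905). That call was lost without ICAM1-low replicate 1 (adjusted p = 0.0841) or replicate 2 (adjusted p = 0.0573), and its log2 fold change was 0.012 with scaling by library size only. DNAJA2, the other major cytosolic class A member, was not called: it measured 91.3 and 90.7 CPM against 85.8 and 92.7 CPM, and the subsets overlapped (log2 0.03, SE 0.06, adjusted p = 0.704). DNAJA4, the least abundant class A gene, had 9 and 9 counts against 3 and 5 and was not tested.

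**Figure D3:**
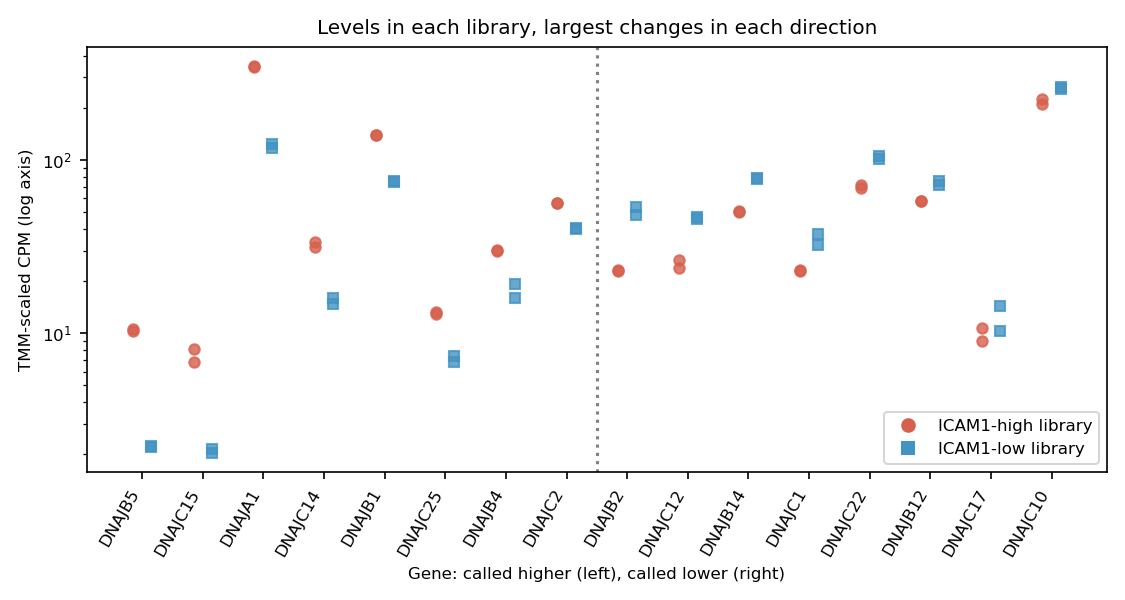
TMM-scaled CPM (log axis) in each library of the 8 DNAJ genes with the largest called rise (left of the dotted line) and the 8 with the largest called fall (right); circles are ICAM1-high and squares ICAM1-low libraries. The subsets separate for 15 of the 16 genes, and the points of DNAJC17 overlap. These genes were picked as called with the largest changes, which favours separation, and the share over all genes was not counted.

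The heat shock factor HSF1 binds inverted repeats of a short unit known as the heat shock element, so the promoter windows of RefSeq (GRCh38.p14, from 250 bases before to 50 after each gene's start) were searched for it on both strands. A window was available for 40 of the 44 members; none was used for DNAJC1, DNAJC22, DNAJC24 and DNAJC5B. The form with 3 adjoining units, GAANNTTCNNGAA or its inverse TTCNNGAANNTTC, was found for DNAJA1 and DNAJB6, 5% of the members with a window, against 0.608% of the 27305 genes with a window. The shorter form of 2 units, GAANNTTC or TTCNNGAA, which every 3-unit match also holds, was found for 8 members (20%) against 16.2% of all genes with a window. These 8 were DNAJA1, DNAJA4, DNAJB1, DNAJB4, DNAJB6, DNAJB7, DNAJC15 and DNAJC6. A match is a description of letters and not of binding, and its part in the expression differences was not tested. The sites of members described here and of HSPA8, the HSP70 gene with the smallest adjusted p, are shown as 30 bases each on the gene's strand, with the matching units in capitals.
DNAJA1, 3 units, chr9:33025268-33025297: gccgggcgGAACTTTCCAGAAcgctcggtg
DNAJA1, 2 units, chr9:33025064-33025093: aaagggctccaGAAGATTCcacgagcgccg
DNAJC15, 2 units, chr13:43023386-43023415: tgtgagtgtgaTTCAAGAAcgtcccagtgc
DNAJC6, 2 units, chr1:65309563-65309592: cggcggcttcgcctcgcccggcGAAGCTTC
HSPA8, 3 units, chr11:123062345-123062374: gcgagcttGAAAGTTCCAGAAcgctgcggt
HSPA8, 3 units, chr11:123062170-123062199: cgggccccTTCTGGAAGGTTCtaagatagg

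The 3-unit match of DNAJA1 lies inside the transcribed sequence, from base 4 to base 16 counted from the RefSeq start, and overlaps a GENCODE 29 exon. DNAJB6, DNAJB1 and DNAJB4 hold matches upstream of the start and outside GENCODE 29 exons, so the exon-free upstream run is shown whole, again with the matching units in capitals. DNAJB1 holds a pair of separate 2-unit matches within it, at -77 to -70 and -47 to -40 from the start, and a further match at bases 2 to 9 of another RefSeq start (chr19:14517918-14517947, not shown). DNAJB6 holds a single 3-unit match at -131 to -119. In DNAJB4 the single 2-unit match lies at -98 to -91.
DNAJB6, plus strand, chr7:157336774-157336965: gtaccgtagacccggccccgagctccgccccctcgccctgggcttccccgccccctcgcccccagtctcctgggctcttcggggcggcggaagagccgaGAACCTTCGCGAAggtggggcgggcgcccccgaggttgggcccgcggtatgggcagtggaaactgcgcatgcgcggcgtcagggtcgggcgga
DNAJB1, minus strand, chr19:14518421-14518647: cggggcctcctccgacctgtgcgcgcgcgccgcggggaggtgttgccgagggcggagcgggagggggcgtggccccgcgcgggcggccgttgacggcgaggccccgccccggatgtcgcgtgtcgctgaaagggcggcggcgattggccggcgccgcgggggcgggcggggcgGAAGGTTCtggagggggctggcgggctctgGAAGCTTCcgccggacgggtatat
DNAJB4, plus strand, chr1:78004689-78004853: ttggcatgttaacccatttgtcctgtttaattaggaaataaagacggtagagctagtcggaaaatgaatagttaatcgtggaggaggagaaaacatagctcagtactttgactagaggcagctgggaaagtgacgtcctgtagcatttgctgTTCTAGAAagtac

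Set beside the expression values, 6 of the 18 members called higher with a window held the 2-unit form. Of the 8 called lower with a window, 0 did. The share over all genes with a window was 16.2%, so few matches would be looked for among 8 genes. Whether the form goes with the direction of the calls was not tested. The matches of DNAJA1, DNAJC15 and DNAJC6 overlap annotated exons, and those of DNAJB1, DNAJB4 and DNAJB6 do not. DNAJB5, the member with the largest fold change, held no match in its window. The endoplasmic reticulum stress element, the motif of ATF6, was searched as CCAAT and CCACG spaced by 9 bases and was in no member's window, against 0.0916% of all genes with a window. That says only that these letters are not in the windows.

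The 10 members of the endoplasmic reticulum divided in both directions: 5 rose, 4 fell and 1 was not called, with a median log2 fold change of 0.08. Calls in both directions were also common over all genes tested, with 30.4% called higher and 29.4% lower. In this group 90.0% were called, beside 59.7% of all genes tested. Of the luminal cofactors of the HSP70 HSPA5, DNAJB11, DNAJB9 and DNAJC3 rose and DNAJC10 fell. DNAJB11, which delivers unfolded chains to HSPA5, measured 91.6 and 88.5 CPM against 69.8 and 67.5 CPM (log2 0.39, SE 0.06, adjusted p = 4.86e-08). DNAJB9, an unfolded protein response gene that holds the stress sensor IRE1 inactive, measured 29.3 and 27.9 CPM against 21.7 and 21.1 CPM (log2 0.42, SE 0.09, adjusted p = 8.34e-05). In both genes the subsets were apart. DNAJC3, a luminal cochaperone first described as an inhibitor of the kinase PKR, measured 100.1 and 89.6 CPM against 82.6 and 82.4 CPM (log2 0.20, adjusted p = 0.00253). The adjusted p rose to 0.101 when ICAM1-high replicate 1 was left out and to 0.0517 when ICAM1-low replicate 2 was.

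DNAJC10 (ENSG00000077232, chr2:182716041-182794464, plus strand), a disulfide reductase that works with HSPA5 in degradation, fell. It measured 225 and 209 CPM against 262 and 257 CPM (log2 -0.26, SE 0.04, adjusted p = 8.45e-07), and with scaling by library size only the call was lost (log2 -0.09, adjusted p = 0.0834). The membrane members that face the cytosol and take part in degradation from the endoplasmic reticulum, DNAJB12 and DNAJB14, both fell. DNAJB14 (ENSG00000164031, chr4:99896248-99946726, minus strand) measured 50.9 and 50.2 CPM against 78.7 and 77.3 CPM (log2 -0.63, SE 0.06, adjusted p = 1.67e-13). DNAJB12 (ENSG00000148719, chr10:72332830-72355230, minus strand) measured 57.8 and 57.9 CPM against 72.1 and 75.4 CPM (log2 -0.35, SE 0.06, adjusted p = 2.25e-06). For both genes the ICAM1-high libraries were close to each other and below the ICAM1-low libraries.

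DNAJC1 (ENSG00000136770, chr10:21756537-22003769, minus strand), a membrane member that binds ribosomes and HSPA5, measured 23.1 and 22.8 CPM against 32.3 and 37.4 CPM (log2 -0.60, SE 0.09, adjusted p = 2.75e-08). DNAJC25 (ENSG00000059769, chr9:111631352-111654351, plus strand), a membrane member, moved the other way, with 13.2 and 12.9 CPM against 7.42 and 6.78 CPM (log2 0.88, SE 0.14, adjusted p = 2.31e-07). The subsets were separate for both. DNAJC18, a membrane relative of DNAJB12, measured 9.18 and 8.005 CPM against 5.76 and 7.04 CPM (log2 0.43, adjusted p = 0.0237), and lost its call without ICAM1-high replicate 1 (adjusted p = 0.186), without ICAM1-low replicate 1 (adjusted p = 0.245) and in DESeq2 (adjusted p = 0.152). DNAJC16 was not called at 31.1 and 30.6 CPM against 31.7 and 31.6 CPM (log2 -0.04, SE 0.08, adjusted p = 0.738).

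Of the 7 mitochondrial members 2 rose, 1 fell and 4 were not called, and their median log2 fold change was 0.11. Calls made up 42.9% of this group, beside 59.7% of all genes tested. Higher calls made up 28.6%, beside 30.4%, and lower calls 14.3%, beside 29.4%. DNAJC15 (ENSG00000120675, chr13:43023203-43114224, plus strand), an inner membrane protein known to restrain respiratory complex I, had the second largest fold change of the family. It measured 6.81 and 8.11 CPM against 2.05 and 2.15 CPM, a 3.55-fold difference (log2 1.83, SE 0.22, adjusted p = 5.61e-11), with the subsets well apart. DNAJC19, its close relative in the protein import motor, was not called at 16.9 and 18.4 CPM against 18.6 and 18.1 CPM (log2 -0.06, SE 0.11, adjusted p = 0.672). DNAJA3, the class A cofactor of the matrix HSP70, measured 126 and 137 CPM against 157 and 152 CPM (log2 -0.23, SE 0.05, adjusted p = 6.11e-05), and the call was lost with scaling by library size only (log2 -0.06, adjusted p = 0.301).

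DNAJC11, a cristae organizing protein of the outer membrane, measured 61.8 and 66.2 CPM against 55.8 and 58.4 CPM (log2 0.16, adjusted p = 0.0271). This call was lost in DESeq2 (adjusted p = 0.140) and without ICAM1-high replicate 2, ICAM1-low replicate 1 or ICAM1-low replicate 2 (adjusted p = 0.0870 to 0.279). The other mitochondrial members were not called. DNAJC30, a complex I assembly factor, differed by 0.24 on the log2 scale (SE 0.15, adjusted p = 0.153), and DNAJC4 by 0.01 (SE 0.14, adjusted p = 0.935). DNAJC28 passed the filter with 7 and 15 counts against 7 and 10 (log2 0.11, SE 0.56), so at this depth only a large difference could have been seen.

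The 5 nuclear, ribosomal and splicing members included 2 that rose and 1 called lower, and their median log2 fold change was 0.10. Calls made up 60% of this group, near the 59.7% of all genes tested. DNAJC2 (ENSG00000105821, chr7:103312474-103344873, minus strand), the J protein of the ribosome-associated complex, measured 56.2 and 56.2 CPM against 40.2 and 39.97 CPM (log2 0.49, SE 0.07, adjusted p = 1.73e-08). DNAJC21, which takes part in maturation of the large ribosomal subunit, measured 56.6 and 59.95 CPM against 45.7 and 42.5 CPM (log2 0.40, SE 0.07, adjusted p = 1.26e-06). The subsets were separate for both ribosomal members. DNAJC17 (ENSG00000104129, chr15:40765155-40807478, minus strand), a spliceosome-associated protein, measured 9.01 and 10.7 CPM against 14.3 and 10.4 CPM, and the subsets overlapped (log2 -0.33, SE 0.14, adjusted p = 0.0417). Without ICAM1-high replicate 1 its adjusted p was 0.244, without ICAM1-low replicate 1 it was 0.723 and in DESeq2 it was 0.209. DNAJC8, a splicing factor and the class C gene with the highest level per kb of exons (27.6 and 25.8 CPM per kb), was not called at 80.6 and 79.0 CPM against 75.7 and 73.4 CPM (log2 0.10, SE 0.06, adjusted p = 0.153). DNAJC9, a histone chaperone, was not called either (log2 0.03, SE 0.08, adjusted p = 0.772).

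All 3 members of vesicle traffic were called higher, each by little, with a median log2 fold change of 0.24. Of all genes tested 30.4% were called higher. DNAJC5, the cysteine string protein of secretory vesicles, measured 101.4 and 108.8 CPM against 90.4 and 87.5 CPM (log2 0.24, SE 0.06, adjusted p = 0.000202). DNAJC6, auxilin, which recruits HSP70 to uncoat clathrin vesicles, measured 14.3 and 14.0 CPM against 10.9 and 10.3 CPM (log2 0.41, SE 0.13, adjusted p = 0.00403). The subsets were separate for both, though DNAJC6 lost its call without ICAM1-low replicate 2 (adjusted p = 0.0511) and in DESeq2 (adjusted p = 0.0579). DNAJC13, an endosomal sorting protein, measured 102.4 and 97.6 CPM against 90.6 and 90.4 CPM (log2 0.14, adjusted p = 0.0240). It lost its call in DESeq2 (adjusted p = 0.113) and without ICAM1-high replicate 1, ICAM1-low replicate 1 or ICAM1-low replicate 2 (adjusted p = 0.126 to 0.184).

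Among the 5 members outside these groups 1 rose, 2 fell and 2 were not called. The share called was 60%, near the 59.7% of all genes tested. DNAJC14 (ENSG00000135392, chr12:55820960-55830824, minus strand) is a membrane protein of the endoplasmic reticulum that assists receptor transport and modulates flavivirus replication. It was not in the list for that organelle above. DNAJC14 measured 31.6 and 33.5 CPM against 14.8 and 15.97 CPM, a 2.11-fold difference (log2 1.08, SE 0.10, adjusted p = 1.48e-15). DNAJC12 (ENSG00000108176, chr10:67796665-67838166, minus strand), a cochaperone of the aromatic amino acid hydroxylases, went the other way. It measured 26.3 and 23.7 CPM against 45.5 and 46.6 CPM (log2 -0.88, SE 0.08, adjusted p = 5.51e-15). DNAJC22 (ENSG00000178401, chr12:49346917-49357546, plus strand), a membrane protein, measured 68.6 and 71.8 CPM against 101 and 106 CPM (log2 -0.56, SE 0.06, adjusted p = 3.44e-13). In ICAM1-low DNAJC12 and DNAJC22 followed DNAJC8 in level among class C genes, at 21.7 and 20.3 CPM per kb of exons, and in ICAM1-high they stood at 11.8 and 13.7 CPM per kb. DNAJC24, a diphthamide synthesis protein, differed by -0.21 on the log2 scale (SE 0.11, adjusted p = 0.0906), which became a call without ICAM1-high replicate 1 (log2 -0.35, adjusted p = 0.0120). DNAJC27, which joins a J domain to a small GTPase, differed by 0.05 (SE 0.16, adjusted p = 0.788).

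None of the 5 members known mainly from testis was tested. DNAJB7 had 6 and 6 counts in ICAM1-high and 1 and 0 in ICAM1-low, DNAJB13 had 5 and 0 against 1 and 1, and DNAJC5G had 0 and 3 against 0 and 2. DNAJC5B had 2 and 0 counts against 0 and 0, and DNAJB8 had 0 counts in all 4 libraries. The counts of all 5 were below the filter, so no difference was tested. DNAJB3 fits the symbol rule but is a transcribed processed pseudogene in GENCODE 29, had 4 and 1 counts against 0 and 0, and was left out.

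The HSP70 family, which holds the proteins that the J domains act on, was read from the same comparison. Of 16 listed HSP70 family genes 15 were tested, 10 rose and 3 fell, with a median log2 fold change of 0.63. That is 86.7% called, beside 59.7% of all genes tested. The list was taken by family, so it also holds HSPA4, HSPA4L, HSPH1 and HYOU1, larger relatives that themselves act as exchange factors. These were not counted with the exchange factors below. HSPA8, the constitutive cytosolic HSP70, measured 1628 ± 14.1 CPM against 168 ± 3.10 CPM (log2 3.28, SE 0.04, adjusted p = 1.73e-62). The largest log2 fold change of a DNAJ gene, that of DNAJB5, was 2.22. The stress-inducible HSPA1A and HSPA1B, near-identical copies whose reads the counting could have split, stood at 67.4 ± 1.77 against 5.52 ± 0.0619 CPM (log2 3.61, adjusted p = 5.34e-42) and 56.5 ± 0.709 against 5.10 ± 0.387 CPM (log2 3.47, adjusted p = 1.32e-39). HSPA2 stood at 52.5 ± 0.0131 against 8.98 ± 0.0606 CPM (log2 2.55, adjusted p = 1.92e-34). HSPA6 had 4 and 9 counts against 1 and 0 and was not tested.

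In ICAM1-low, HSPA8 was at 34.5 CPM per kb of exons beside DNAJA1 at 44.2, and in ICAM1-high HSPA8 was at 336 beside DNAJA1 at 126. With the longest transcript as length the order in ICAM1-low turned, with HSPA8 at 68.0 and DNAJA1 at 50.6, and in ICAM1-high HSPA8 was at 661 and DNAJA1 at 145. For the organelles, a pair of HSP70 genes was picked by place after their values were seen. HSPA5 of the endoplasmic reticulum rose by 0.47 on the log2 scale (adjusted p = 3.81e-18), and HSPA9 of the mitochondrial matrix, the partner of DNAJA3, fell by 0.90 (adjusted p = 2.31e-32). The other called falls were HSPA13 (log2 -1.06, adjusted p = 3.66e-26) and HSPA4 (log2 -0.29, adjusted p = 1.17e-08).

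Of the 10 listed nucleotide exchange factors 5 rose and 2 fell, which is 70% called, beside 59.7% of all genes tested. BAG1 was higher by 1.45 on the log2 scale (adjusted p = 3.29e-29), BAG3, an HSF1 target that links HSP70 to autophagy, by 0.74 (adjusted p = 8.26e-18) and BAG6 by 0.14 (adjusted p = 0.00907). GRPEL2, an exchange factor of HSPA9 in mitochondria, fell by 0.91 (adjusted p = 2.51e-15), and the other called fall was HSPBP1 (log2 -0.16, adjusted p = 0.0291). GRPEL1, the other mitochondrial exchange factor, was not called at 50.8 CPM in ICAM1-high against 55.9 CPM (log2 -0.14, adjusted p = 0.0790). DESeq2 called 2 of the 10 higher and 1 lower, and edgeR called 3 higher without ICAM1-high replicate 2 or ICAM1-low replicate 1, and 2 higher and 1 lower without ICAM1-low replicate 2. Of 3 J domain proteins with symbols outside the family, SEC63, the J protein of the translocon in the endoplasmic reticulum, fell by 0.53 (adjusted p = 9.16e-14). HSCB and GAK were not called (log2 -0.09 and -0.01). The share called among these 3 was 33.3%, beside 59.7% of all genes tested.

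**Figure D4:**
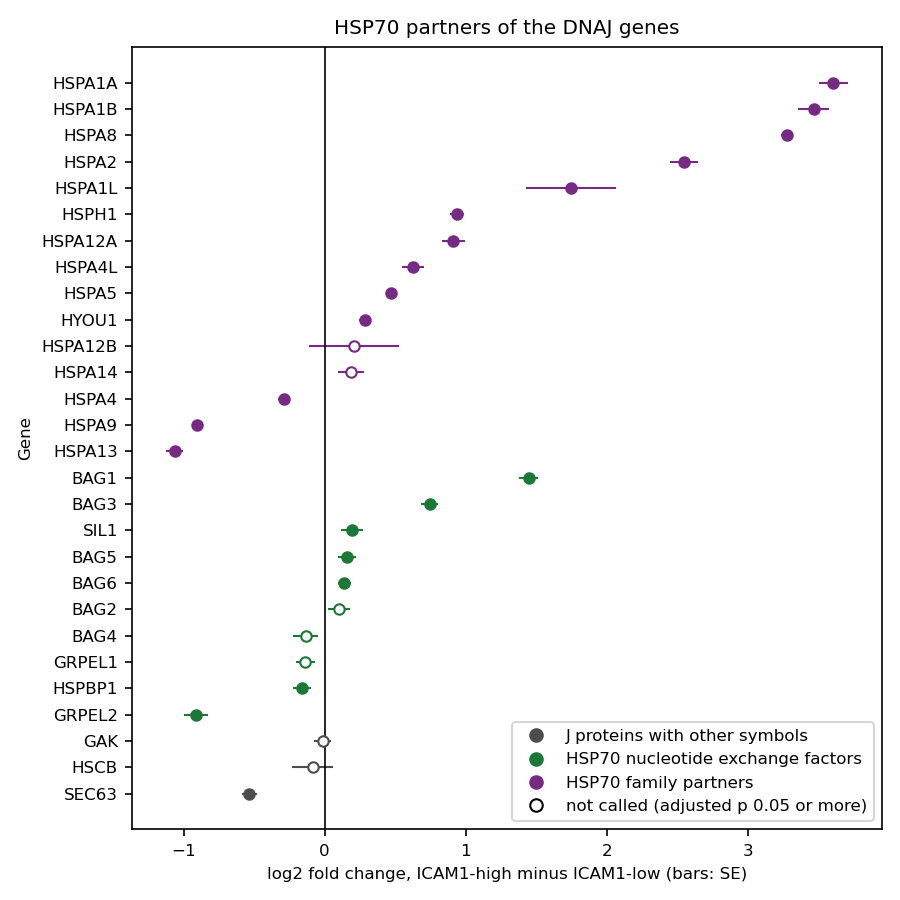
Log2 fold change, ICAM1-high minus ICAM1-low (x axis; bars are the SE of the fit), of HSP70 family genes, nucleotide exchange factors and J proteins with other symbols; open points were not called. HSPA1A, HSPA1B and HSPA8 lie above 3 while HSPA9, HSPA13, GRPEL2 and SEC63 lie below 0.

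A list of 22 heat shock genes without DNAJ members had 20 called higher and 1 lower (HSF2, log2 -0.45, adjusted p = 0.00110), with a median log2 fold change of 0.65. Most encode cytosolic proteins, but HSPD1 and HSPE1 act in mitochondria and SERPINH1 in the endoplasmic reticulum, and these were called higher too. The list shares 6 genes with the HSP70 and exchange factor lists above. Like those lists, it was chosen with earlier results of these data known. Its share called was 95.5%, beside 59.7% of all genes tested, and 90.9% were called higher, beside 30.4%. HSP90AA1, the inducible cytosolic HSP90, stood at 1908 ± 52.1 CPM against 754 ± 3.13 CPM (log2 1.34, adjusted p = 5.54e-42). HSF1 itself was not called at 106 ± 11.2 against 106 ± 3.81 CPM. A list of 20 endoplasmic reticulum stress chaperones and regulators had 10 called higher and 7 lower, with a median of 0.10. The share called was 85%, beside 59.7% of all genes tested. This list held changes in both directions. CALR rose by 0.66 (adjusted p = 1.14e-24) and MANF by 1.06 (adjusted p = 1.54e-21), while ERN1, which encodes IRE1, fell by 1.91 (adjusted p = 1.60e-41) and XBP1 by 0.74 (adjusted p = 3.18e-22).

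The sources used here do not give the strand setting of the counting, and 19 of the 44 members share exonic bases with another gene that had counts in the table. Called members among them include DNAJC11, which shares bases with THAP3, DNAJC14 with ORMDL2 and TMEM198B, DNAJC17 with GCHFR, C15orf62 and ZFYVE19, DNAJC2 with PMPCB, DNAJC7 with CNP and NKIRAS2, DNAJB11 with TBCCD1, DNAJB1 with TECR, and DNAJB9 with PNPLA8 and THAP5. Reads of these pairs may have been split or lost. Of the 25 members without a counted neighbour of this kind 23 were tested, 11 rose and 8 fell. Over all genes tested 30.4% were called higher and 29.4% lower.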

How the data were processed

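RNA-seq was made from 2 ICAM1-high and 2 ICAM1-low libraries; groups came from the sample titles. Per the labels' protocols, Trizol RNA was made into libraries with a SMARTER mRNA kit. Raw counts per gene, deposited by the authors as 1 table, were matched to samples by the descriptions. FastQC 0.10.1 and the build GRCh38 are named, per the submitters' processing notes. An aligner, a counting program and its strand and multi-mapping settings were not given in the sources used here. All 58735 identifiers were found in GENCODE 29, and 58207 had a symbol in the name table.

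Counts were compared with edgeR 4.0.16 in R 4.3.3 (quasi-likelihood test, robust, TMM, minimum count 10 and total 15), with Benjamini-Hochberg adjustment over all 16250 genes tested; the fit was tested on simulated data. Libraries of a subset varied by 3.64% (coefficient of variation from the common dispersion, fitted over both subsets). Chi-square per degree of freedom was 3.07 between the ICAM1-high libraries and 1.86 between the ICAM1-low libraries, so the spreads differed. A fit that leaves out 1 library rests on the spread of the subset that keeps 2. Replicate numbers did not pair the libraries. Alternatives used limma 3.58.1, DESeq2 1.42.0, other scalings, filters and thresholds, a replicate block, and each library left out. Named with full values were the 8 members called higher and the 8 called lower with the largest change, from a mean of 1 CPM up, the most abundant member of each class, and up to 4 genes per list outside the family with the smallest adjusted p. The members and lists were chosen with earlier results of these data known. Heat shock and endoplasmic reticulum stress elements were searched by exact letters in the RefSeq promoter windows. Limits for counts of 0 cover counting error only. Protein sequences were not used here. A further gene first chosen for the list of J proteins with other symbols was dropped and is not reported here.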

Additional observations from a re-analysis of the deposited data

How the results depend on the processing

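Of the 28 members called, 19 kept direction and call under all 13 alternatives run, including DNAJA1, DNAJB1, DNAJB5, DNAJC15, DNAJC14 and DNAJB2; DNAJA3, DNAJC3, DNAJC6, DNAJC7, DNAJC10, DNAJC11, DNAJC13, DNAJC17 and DNAJC18 did not. With scaling by library size only, 3124 genes over the table were called lower (4771 with TMM), members divided into 22 higher and 6 lower with a median log2 fold change of 0.30, class A had 2 called higher and 0 lower, class C 3 lower, the general folding members 1 lower, the mitochondrial members 0 lower, the nuclear members 4 higher and 0 lower, the exchange factors 1 lower and the J proteins with other symbols 1 higher. DESeq2 called 7 class C members, 1 mitochondrial, 1 vesicle member and 2 exchange factors higher, and 0 nuclear members and 1 exchange factor lower. Without a filter 3 exchange factors and 1 mitochondrial member were called higher and the members' median was 0.18; with a minimum mean of 1 CPM the median was 0.16 and 0 nuclear members were called lower, as in limma-voom (0). At an adjusted p under 0.01, 3 exchange factors and 1 mitochondrial member were called higher, and 1 exchange factor and 0 nuclear members lower. Members sharing no exonic bases with a counted gene, an alternative chosen after seeing the data, gave 11 called higher. Counting 2 units in place of 3 gave 8 members with a heat shock element against 2. With the longest transcript as length, DNAJA1 made up 21.7% of the family in ICAM1-high and 9.04% in ICAM1-low (27.1% and 11.9% with all exons), and DNAJC7 passed DNAJC8 as the most abundant class C gene in ICAM1-low. Leaving out 1 library at a time gave 14 to 17 members called higher and 8 to 10 lower, a median of 0.11 to 0.16, class C 7 to 10 higher, general folding 1 to 2 lower, endoplasmic reticulum 3 to 5 higher, mitochondria 1 to 2 higher, nuclear 0 to 1 lower, vesicles 1 to 3 higher, and exchange factors 2 to 4 higher and 1 to 2 lower; these fits assume that the lone library of an arm varies as the other arm does. Signs changed for DNAJC7 (0.012), DNAJC16 (0.14) and DNAJC19 (0.12) with library size only and for DNAJC4 without a filter (-0.0065). Leaving out 1 library changed the sign of members that were not called: the log2 fold change ran from -0.036 to 0.074 for DNAJA2, -0.12 to 0.14 for DNAJC4, -0.085 to 0.13 for DNAJC9, -0.046 to 0.14 for DNAJC27 and -0.54 to 0.56 for DNAJC28. The cause of these changes was not tested.

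Same-numbered libraries correlated at 0.0417 in their deviations from the group means over all genes and at 0.0519 over the 9790 genes of at least 10 CPM, so the numbers were not taken as pairs. With the replicate block 4976 genes were called higher and 4836 lower, the members stayed at 18 called higher and 10 lower, and their median was 0.12. At this depth DNAJC28 and the 6 untested members, with at most 15 counts in a library, can show only large differences.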
